A study of Saccharomyces cerevisiae with 9 samples.

Results

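The 3′ ends of polyadenylated RNA in budding yeast (Saccharomyces cerevisiae) with no depleted factor were described from the table labelled WT, which pools 3 of the 9 libraries of the study. The members are the ends that lie past the annotated end of a gene on its strand. In all, 4990 of 5301 coding features with such ends carried at least 60 reads and were given a 3′ UTR length, and 1851 carried at least 1000 reads and were described by their sites. The rule uses the table and its coordinates alone, and no comparison with the depletion tables was made.

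The WT cells are strain HHY168 with FPR1 replaced by hphMX4, kept in rapamycin for 2 h. HHY168 is an anchor-away parent, in which rapamycin ties a protein with an FRB tag to the ribosomal protein Rpl13A and carries it out of the nucleus. The WT group has no tagged target, but it shares the drug and the strain background with the depletion groups of the study, so it is not an untreated wild type. Total RNA was extracted with hot phenol and sequenced as RNA with the Oxford Nanopore SQK-RNA004 kit, in which sequencing starts at the poly(A) tail. Each read therefore gives 1 end whatever the length of the gene. The 3 libraries were pooled in 1 column, which leaves no measure of the spread between them. The 95% intervals below are exact binomial or order-statistic intervals that cover counting error in reads or treat genes as independent, and they hold no error between cultures.

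The values in the table were whole multiples of 0.0429, taken as 1 read. They summed to 24559388 reads over all listings and 22471260 with each position counted once, under 5935 features. No position was listed below 11 reads, so rare ends are missing, and a gene without a value is called not listed. FPR1 (YNL135C, chrXIV:371882-372226, minus strand), which the labels give as deleted, had 158 reads at 10 downstream positions, with a median 116 nt past the gene. RPL13A was not listed with downstream ends.

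Yeast mRNA 3′ ends are made by cleavage of the nascent transcript and addition of a poly(A) tail. The cleavage machinery reads a loose set of AU-rich signals: an efficiency element such as UAUAUA, then an A-rich positioning element, then U-rich stretches on both sides of the cut, which often falls after a pyrimidine followed by adenines. Because no single signal fixes the cut, yeast genes are known for clusters of nearby ends. The 3′ UTR that results is the landing site of RNA-binding proteins such as the Puf proteins, which act on decay, translation and localisation.

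The bases at the ends of highly read genes are printed first because the whole description rests on where an end is called. In each line the capital is the base at the most used listed end and the letters after it are genomic bases past it (build R64, DNA letters of the transcript strand).
TDH3 (chrVII:882702-882731, minus): taatgacattttcgattcattgattgaAag
PDC1 (chrXII:232311-232340, minus): aacgaaaaataaattggttcatattatTac
ENO2 (chrVIII:452731-452760, plus): atttaggtttaaaaattgatacagtttTat
RPS31 (chrXII:499430-499459, plus): attttaattgatcgttaaattttgaaaAag
In all 4 genes the next base was an A and the base after that was not. This held across the genome. The base after the most used end was A in 4675 of 4990 genes (93.7%, 93.0 to 94.3%), and the following base was A in 11 (0.22%). A genomic A cannot be told from the first A of the tail, so the cut is known only to within the run of A that ends there. That run had a median length of 2 nt (quartiles 1 and 3). It reached 6 nt at 360 most used ends (7.21%) and 10 nt at 68 (1.36%). The labels do not say whether listed positions count from 0 or 1, so all ends may lie 1 nt further downstream than given here.

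Coding genes ended a short way past the stop codon. The median 3′ UTR, taken as the read-weighted median distance of a gene's ends past its annotated end, was 114 nt (112 to 116) over 4990 genes. The central 50% of genes lay between 84 and 163 nt, and 90% lay between 54 and 300 nt. Weighted by reads in place of genes, the median was 110 nt. The plus strand had a median of 113 nt (110 to 116, 2515 genes) and the minus strand 115 nt (112 to 118, 2475 genes), so their intervals overlapped.

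By length, 193 genes (3.87%) had a 3′ UTR of up to 50 nt, 1727 (34.6%) of 51 to 100 nt and 1578 (31.6%) of 101 to 150 nt. Another 736 fell between 151 and 200 nt. Above 200 nt lay 756 of 4990 genes (15.2%), of which 43 exceeded 500 nt. The length differed little with the number of reads: in 5 classes of 998 genes, from those with fewest reads to those with most, the medians were 122, 113, 113, 109 and 120.5 nt. The intervals of the lowest (114 to 129) and highest class (114 to 125) lay above that of the next to highest (106 to 112).

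**Figure D1:**
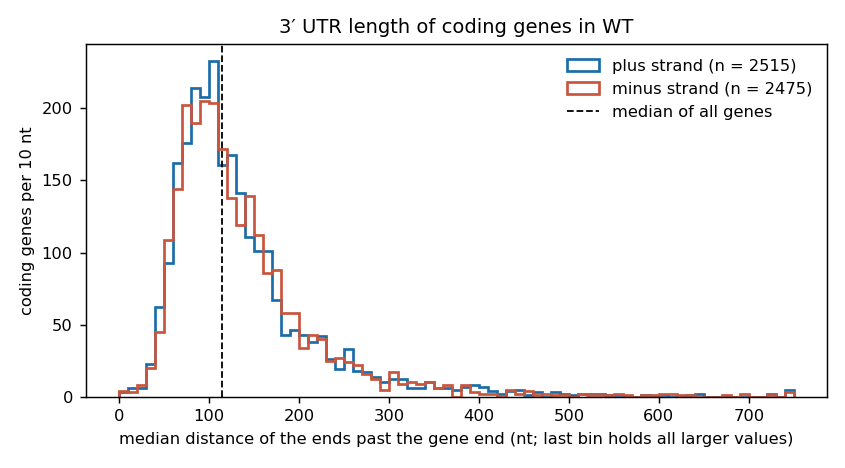
Distribution of 3′ UTR length over 4990 coding genes, in 10 nt bins; the x axis is the read-weighted median distance of a gene's ends past its end (nt) and the y axis is the number of genes, for the plus and the minus strand. Both strands peak near 100 nt, with the dashed median at 114 nt and a thin tail past 300 nt.

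The most heavily read genes show how different individual genes can be at the same depth. CCW12 (YLR110C, chrXII:369697-370098, minus strand), a cell wall mannoprotein gene, had most reads, 459593, spread over 171 positions with 4 sites at 41, 88, 114 and 141 nt. These held 46160, 136264, 170543 and 53229 reads. TDH3 (YGR192C, chrVII:882812-883810, minus strand), which encodes glyceraldehyde-3-phosphate dehydrogenase, had 434971 reads, of which 94.6% lay in a single 25 nt window around 108 nt. PDC1, the main pyruvate decarboxylase gene, had 74.8% of 293416 reads at 1 position, 77 nt past the gene. Of the pair of genes for ribosomal protein Rpl41, RPL41B ended at 205 nt (423964 reads) and RPL41A at 218 nt (265064 reads). Their coding parts are near-identical, so reads could be shared between them. RPS31, a fusion of ubiquitin and a small-subunit protein, ended at 52 nt, RPL29 at 97 nt, TEF2, for translation elongation factor 1-alpha, at 87 nt and the enolase gene ENO2 at 121 nt. CCW12 was thus the most dispersed of these genes, and PDC1 and RPL41A lay at the other end.

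YLR154C-G, another of the 10 most read coding features (276527 reads), is not a measure of an mRNA end. It lies inside the 25S rRNA gene RDN25-2 (chrXII:460923-464318, minus strand), and its median end, 1598 nt past it, was 1 nt short of the last base of that rRNA gene. It supplied 271997 of the 355427 coding reads that lay over 500 nt past a gene (1.69% of coding reads). Without it, 83430 reads did (0.402%). It was the only coding gene of the 4990 whose median end lay inside an annotated gene around it.

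Among genes with at least 200 reads, the longest 3′ UTRs, after YLR154C-G, ran from 608 to 822 nt. SIP5 had a median of 822 nt from 220 reads. DED1, a DEAD-box helicase gene of translation initiation, had 721 nt from 2821 reads. WHI3, which encodes an RNA-binding protein of cell size control, had 692 nt (243 reads), MPT5, a Puf protein gene, 645 nt (217 reads), and DHH1, a DEAD-box helicase gene of mRNA decapping, 637 nt (439 reads). TYE7, a transcription factor gene for glycolysis, had 608 nt. COS5 (616 nt) and COS7 (609 nt) belong to a family of near-identical subtelomeric genes, and their reads may be shared. RPS28B (YLR264W, chrXII:673131-673334, plus strand) stood out by depth: 36712 reads with a median of 644 nt, 86.6% of them in the window around 647 nt. Its long 3′ UTR is known to carry an element for decay of its own mRNA through Edc3. The paralog RPS28A (chosen after its values were seen) had 90155 reads with a median of 129 nt and 92.8% in the window around 132 nt. The 2 genes for the same ribosomal protein thus differed by over 500 nt, and neither had another site of 10%.

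Among named genes with at least 200 reads, the shortest 3′ UTR belonged to a duplicated gene with a site almost on the stop codon. EFT1, one of 2 genes for elongation factor 2, had a site 2 nt past the gene with 27158 reads and another at 189 nt with 17896. Its copy EFT2 (chosen after its values were seen) had 18321 reads at 2 nt and 28985 at 152 nt. The copies have 3 identical bases past the gene before they first differ. The site at 2 nt thus lies in sequence that both share, and the assignment of its reads to 1 copy is uncertain. Whether the RNA ended there or only the alignment did was not tested, so the place of EFT1 as the shortest is uncertain too. RPL4B had 37159 reads at 10 nt and 16710 at 79 nt, and its copy RPL4A (chosen likewise) had 12340 at 10 nt, 13788 at 74 nt and 36466 at 96 nt. RPL4A and RPL4B have 1 identical base past the gene before they first differ. Beyond these, IRC9 ended at 5 nt, YER138W-A at 16 nt, and PIH1, for a chaperone cofactor, and RRT15, which lies in the rDNA region, at 18 nt. KAR1, a spindle pole body gene, ended at 20 nt, THI80, for thiamine pyrophosphokinase, and TRM13, a tRNA methyltransferase gene, at 23 nt, and STE14, which encodes the methyltransferase of a-factor maturation, at 24 nt. Each of these had between 225 and 735 reads except YER138W-A, which had 6238.

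Within a gene the ends scattered over short stretches. In 1851 coding genes with at least 1000 reads, the width that held the central 80% of reads had a median of 31 nt (30 to 32), with quartiles of 19 and 59 nt, and the central 50% of reads spanned 14 nt. A gene had ends at a median of 24 positions, of which the most used took 31.2% of reads (quartiles 23.1 and 41.8%). The 25 nt window around it took 67.7% (quartiles 52.2 and 82.3%), and it took at least 90% in 221 genes (11.9%).

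With a site defined as a 25 nt window that holds at least 10% of a gene's reads, 446 genes had 1 site, 858 had 2, 444 had 3, 90 had 4, 11 had 5 and 2 had 6. Thus 1405 of 1851 (75.9%, 73.9 to 77.8%) had 2 or more. Most of these sites were neighbours. In 848 genes (45.8%) at least 2 sites each held 20% of reads, and the farthest such sites lay a median of 22.5 nt apart. They were at least 100 nt apart in 51 genes (2.76%, 2.06 to 3.61%) and at least 200 nt apart in 6 (0.324%). The count of genes with several sites depends on the definition: when ends up to 25 nt from the next were joined into 1 site, 12.7% of genes had 2 or more, and with 51 nt windows 42.6% did.

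**Figure D2:**
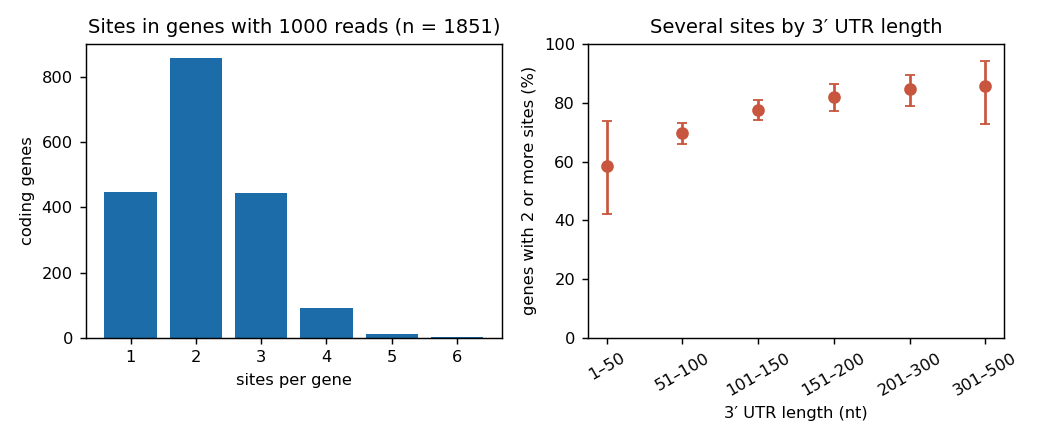
Left, number of coding genes (y axis) by number of sites per gene (x axis) in 1851 genes with at least 1000 reads, where 858 genes have 2 sites. Right, share of genes with 2 or more sites (y axis, %, bars are exact 95% binomial intervals) by 3′ UTR length (x axis, nt), from 58.5% at up to 50 nt to 85.7% at 301 to 500 nt.

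The share of genes with several sites was higher in the longer classes of 3′ UTR, while the median number of sites was 2 in each class up to 500 nt. The share of genes with 2 or more sites was 58.5% at up to 50 nt (42.1 to 73.7%, 41 genes), 69.7% at 51 to 100 nt, 77.6% at 101 to 150 nt, 82.0% at 151 to 200 nt, 84.6% at 201 to 300 nt and 85.7% at 301 to 500 nt (72.8 to 94.1%, 49 genes). The central 80% of ends widened over the same classes from 29 and 25 nt to 32, 39, 40 and 44 nt. The intervals of this share did not overlap between 51 to 100 nt (66.0 to 73.2%) and 101 to 150 nt (74.1 to 80.8%), and they overlapped between all other neighbouring classes.

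The most dispersed genes came from varied pathways. SEC27, which encodes a COPI coat subunit, had 6 sites between 119 and 232 nt, none with more than 23.5% of its 1527 reads. SVS1 also had 6. Of the 11 genes with 5, those with the widest central 80% were PRY2, a sterol-binding secreted protein gene, ATP1, for the alpha subunit of the F1 ATPase, LYS12 of lysine synthesis, MXR1, a methionine sulfoxide reductase gene, GLN1, for glutamine synthetase, LSB3 of actin patches, SYO1, for the import chaperone of ribosomal proteins, and ASC1, the yeast RACK1 gene. ASC1 (YMR116C, chrXIII:499456-500688, minus strand) was the deepest of them. Of its 71263 reads, 13.4% lay at the site at 78 nt, 29.4% at 94 nt, 11.6% at 124 nt, 15.4% at 159 nt and 19.8% at 228 nt. Its central 80% spanned 145 nt.

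At the other extreme, HCA4, a DEAD-box helicase gene of rRNA processing, had 924 of 1102 reads at a single position 83 nt past the gene. Its central 80% had a width of 0 nt. The central 80% spanned 2 nt in ERV29, an ER cargo receptor gene, 3 nt in PDC1, RPL42A, IPP1 (inorganic pyrophosphatase), YPL088W and PHO8 (alkaline phosphatase), and 4 nt in RPP1B, of the ribosomal stalk, and NOP10, of H/ACA snoRNPs. Narrow genes were found at all depths, from 1084 reads in PHO8 to 293416 in PDC1. YLR154C-G, described above, also belongs to the narrowest by this measure.

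**Figure D3:**
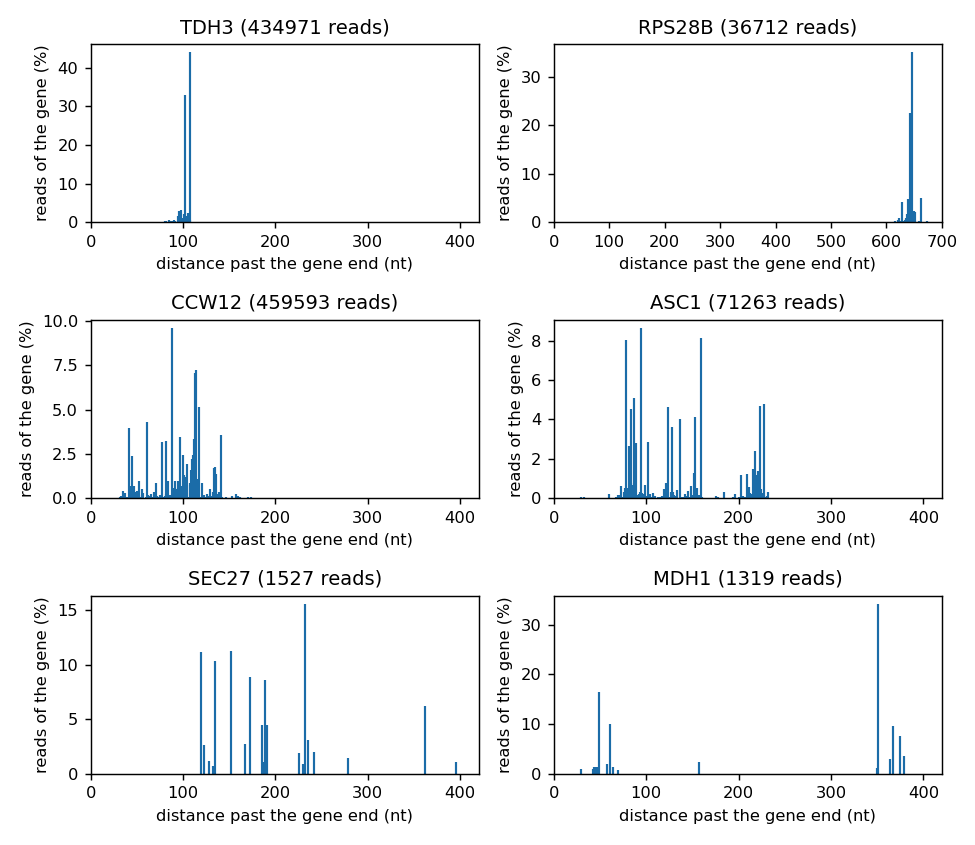
Share of each gene's reads (y axis, %) by distance past the gene end (x axis, nt) for 6 genes, 1 bar per listed position. TDH3 and RPS28B show 1 tight cluster (108 and 647 nt), CCW12 and ASC1 a broad comb, SEC27 6 sites and MDH1 separate groups near 49 and 351 nt.

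Far-apart sites were rare and are the clearest cases of alternative 3′ UTRs. COX6 (YHR051W, chrVIII:209705-210151, plus strand), for a cytochrome c oxidase subunit, had 57.5% of 4146 reads at 117 nt and 20.5% at 460 nt. VAC8 (YEL013W, chrV:128825-130561, plus strand), a vacuole inheritance gene, had 37.3% of 1017 reads at 174 nt and 61.6% at 445 nt. RPB2, for the second-largest subunit of RNA polymerase II, had 42.5% of 1643 reads at 40 nt, at the end of a run of 6 A, 20.6% at 347 nt and 11.5% at 408 nt. PRB1, for vacuolar proteinase B, had sites at 29, 210 and 228 nt, RVS161, an endocytosis gene, at 99, 283 and 296 nt, and PIN3 at 130, 196, 210 and 314 nt.

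In some of these genes a site ended in a long genomic run of A. MDH1 (YKL085W, chrXI:279123-280127, plus strand), the mitochondrial malate dehydrogenase gene, had 35.5% of 1319 reads at 49 nt, at the end of a run of 15 A, 35.3% at 351 nt, at the end of a run of 11 A, and 23.7% at 367 nt. Its first sites are printed to show these runs, again with the listed end in capitals (build R64, plus strand).
MDH1, site at 49 nt (chrXI:280149-280178): agtgaaaaatagggaaaaaaaaaaaaaAat
MDH1, site at 351 nt (chrXI:280451-280480): aatatacatatatgatataaaaaaaaaAat
DTD1, a D-aminoacyl-tRNA deacylase gene, had sites at 54, 265 and 294 nt, the last after 12 A. CKA1, for a catalytic subunit of casein kinase 2, had sites at 33, 114 and 354 nt, the first after 13 A. In COX6, VAC8 and RVS161 the runs at all their sites were at most 3 nt. Whether a genomic run of A was read as a tail was not tested. With all ends after 6 or more A left out, an alternative chosen after seeing the data, the median 3′ UTR was again 114 nt and the share of genes with 2 or more sites was 72.7%.

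Genes that are textbook cases of alternative mRNA ends in yeast were listed mostly with several close downstream ends, as were most coding genes. Among those with at least 1000 reads, 4 of 6 (66.7%) had several sites, against 75.9% of all coding genes at that depth. This share does not set the textbook genes apart. RNA14, for a cleavage factor subunit, had sites at 51, 91 and 106 nt with 45.4%, 13.4% and 29.3% of 485 reads, the middle one at the end of a run of 10 A. SUA7, the TFIIB gene, had 52.4% of 1242 reads at 162 nt and 37.3% at 278 nt. PAB1, the poly(A)-binding protein gene, had 4 sites from 51 to 180 nt, with 46.5% of 9356 reads at 151 nt. ACT1, the actin gene, had 55.2% of 41546 reads at 105 nt, with smaller sites at 92 and 132 nt. CYC1, for iso-1-cytochrome c and a model of 3′ end formation, had 88.5% of 12312 reads at 176 nt and 10.7% at 199 nt. NRD1, a termination factor gene, had sites at 76, 145 and 162 nt, and AEP2, a mitochondrial mRNA factor gene, at 78, 122 and 140 nt. PCF11, for a cleavage factor subunit, had 85.5% of 324 reads at 67 nt. HRP1, IMD2 and CBP1 had a single site, with medians of 135, 179 and 94 nt. SIR1 had 25 reads, below the minimum for a length, and HIS3 was not listed with downstream ends.

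Some of these genes are known for ends inside the coding region, which the table covers on the minus strand alone. Of the 4 minus-strand genes of the list, 2 had such ends, all with reads close to the listing minimum of 11. The share of all minus-strand coding genes with such ends was not counted, so this count does not set the list apart. AEP2 had 15 reads at 1 position 1162 nt before the gene end, and ACT1 had 17 reads 32 nt and 11 reads 484 nt before it. Over all minus-strand coding genes, 222105 reads lay inside the gene they were listed under.

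The sequence around the ends carried the signals of the yeast cleavage machinery. TATATA, the strongest known form of the efficiency element and its own reverse complement, occurred 80 to 21 nt before the most used end in 2247 of 4990 genes (45.0%, 43.6 to 46.4%). In windows of the same length 150 nt further upstream it occurred in 84 (1.68%), and 21 to 80 nt after the end in 375 (7.52%). These windows differ in base composition: 73.9% of bases were A or T before the end, 60.8% further upstream and 64.8% after it. The window further upstream, 230 to 171 nt before the end, lay in the coding region in most genes, as 75% had a 3′ UTR of at most 163 nt. The first base of TATATA lay a median of 44 nt before the end (quartiles 35 and 56), and the 5 nt bin with most starts was 40 to 36 nt before it, with 8.90% of genes.

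Examples from the most read genes that have TATATA in this window are printed with the hexamer in capitals (build R64). They were chosen for having it, and CCW12, RPL41B, PDC1 and ENO2 are not among them.
TDH3 (chrVII:882726-882755, minus, 39 nt before the end): ttagtttcaattTATATActattttaatga
RPL41A (chrIV:130221-130250, minus, 49 nt before): tatatagtgcttTATATAtgtctcacatag
TEF2 (chrII:479068-479097, plus, 54 nt before): atataatattttTATATAcctcttattttt
RPS31 (chrXII:499413-499442, plus, 32 nt before): atttttaaaactTATATAttttaattgatc
RPL29 (chrVI:223188-223217, minus, 44 nt before): tttgtctgatttTATATAacatgttttatt
In these 5 genes the hexamer stands within 32 to 54 nt of the listed end. AATAAA, one form of the A-rich positioning element, was found in the 80 to 21 nt window of 576 genes (11.5%), against 241 (4.83%) further upstream and 370 (7.41%) after the end. Its starts were most frequent 25 to 21 nt before the end (3.71% of genes), where the hexamer runs past that window. In the window 40 to 11 nt before the end, AATAAA was found in 507 genes (10.2%). It was found in 142 (2.85%) at 190 to 161 nt before and in 164 (3.29%) at 21 to 50 nt after. Adenine made up 45.7% of bases 20 nt before the end, against 36.2% 50 nt before it. At the position 2 nt after the end, thymine made up 52.8%, cytosine 26.7% and guanine 20.3%. A itself made up 0.22% there, as given above, since the run of A stops at the base before. The shares of the other bases are raised by this, so the thymine share there is no measure of a U-rich signal.

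**Figure D4:**
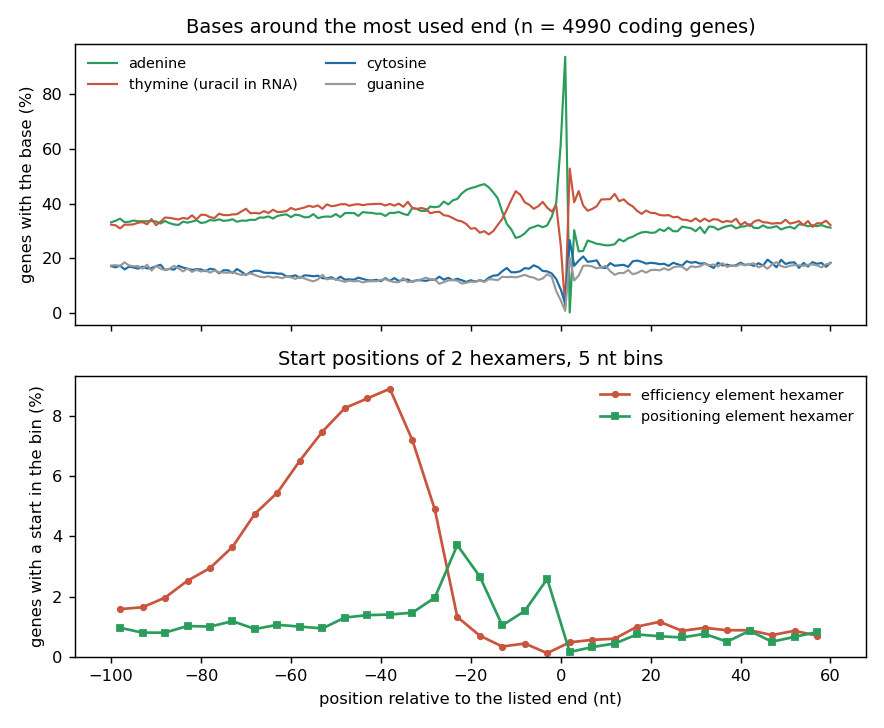
Upper panel, share of genes (y axis, %) with each base by position relative to the most used end (x axis, nt; negative is upstream) in 4990 coding genes. Lower panel, share of genes (y axis, %) with a start of the efficiency element hexamer or of the positioning element hexamer in 5 nt bins; the first peaks at 8.90% between 40 and 36 nt upstream and the second at 3.71% between 25 and 21 nt upstream.

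Genes with the hexamer had more focused ends. Among genes with at least 1000 reads, the 25 nt window around the most used end held a median of 71.7% of reads (68.9 to 74.3%) in the 854 genes with TATATA and 65.4% (63.4 to 67.2%) in the 997 without. The central 80% spanned 27 nt (25 to 29) and 36 nt (33 to 38). Sites numbered 2 or more in 70.8% (67.7 to 73.9%) and 80.2% (77.6 to 82.7%). None of these intervals overlapped, while 3′ UTR length did not differ beyond its interval (116 nt, 112 to 121, and 111 nt, 107 to 116). Within genes the contrast was not resolved. In 284 genes with sites at least 60 nt apart, TATATA preceded the most used site in 87 (30.6%, 25.3 to 36.4%) and the lesser site in 72 (25.4%, 20.4 to 30.8%). Taken by gene, it preceded the most used site alone in 73, the lesser site alone in 58, both in 14 and neither in 139. The lesser site was nearer to the gene in 142 of the 284 genes.

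Of 8 gene lists, ribosomal proteins, transcription factors and histones had a median 3′ UTR whose interval left out that of all coding genes, and the other lists did not. The values are set beside those of all coding genes (114 nt, 15.2% over 200 nt, 75.9% with 2 or more sites). Ribosomal protein genes were somewhat shorter, with a median of 102 nt (97 to 110) over 135 genes, 13 over 200 nt (9.63%) and 93 of 135 with 2 or more sites (68.9%, 60.4 to 76.6%). Genes for sequence-specific transcription factors were longer, with a median of 167 nt (125 to 258) over 35 genes. Of these, 14 exceeded 200 nt (40%, 23.9 to 57.9%). The best read of them were GCN4, the amino acid starvation regulator (96 nt), GAT1 of nitrogen control (128 nt), HAP4 of respiration (364 nt) and the hypoxic repressor ROX1 (296 nt). Histone genes, whose mRNAs carry poly(A) tails in yeast, had a median of 163 nt (141 to 194) over 10 genes, 1 of them over 200 nt (HHT2, 244 nt), and 8 of 10 had 2 or more sites. HHF2 stood at 165 nt, HTA1 at 161 nt and HHT1 at 142 nt. The largest sites of GAT1, ROX1 and HHT1 lay at the ends of genomic runs of 16, 9 and 9 A.

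The mRNAs carried to the bud by She2 and She3 had a median of 156 nt (106 to 244) over 18 genes, with 6 over 200 nt and 5 of 8 with 2 or more sites. The best read were ERG2 of ergosterol synthesis at 63 nt, EGT2 of cell separation at 118 nt, ASH1, the repressor of mating-type switching, at 99 nt, and LCB1 of sphingolipid synthesis at 70 nt. Genes of glycolysis and fermentation had a median of 129 nt (95 to 165) over 20 genes, 1 over 200 nt and 11 of 18 with 2 or more sites. FBA1, the aldolase gene, stood at 77 nt. Genes of the cleavage and polyadenylation machinery stood at 115.5 nt (76 to 150) over 22 genes, 2 over 200 nt and 2 of 3 with 2 or more sites. GLC7, a phosphatase gene of this list, had 429 nt, PAB1 151 nt, HRP1 135 nt and NAB2, a poly(A)-binding protein gene, 150 nt. The textbook genes named above had a median of 135 nt (91 to 176) over 11 genes, none over 200 nt and 4 of 6 with 2 or more sites. Mitochondrial ribosomal protein genes matched the median of all genes, 114 nt (104 to 123) over 74 genes, with none over 200 nt and 28 of 37 with 2 or more sites.

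Mitochondrial ribosomal protein genes differed from the rest in what their 3′ UTR contained. Puf3 is an RNA-binding protein of mRNAs for nuclear-encoded mitochondrial proteins, and its known element reads TGTANATA in DNA letters (N is any base). With the 3′ UTR taken up to the median end, it was found in 747 of 4990 coding genes (15%) and in 72 of the 74 genes of this list (97.3%, 90.6 to 99.7%). It was found in 2 of 135 cytosolic ribosomal protein genes (1.48%), 1 of 20 genes of glycolysis and fermentation, 1 of 10 histone genes, 1 of 22 genes of the cleavage machinery, 1 of 35 transcription factor genes, 2 of 11 textbook genes and 0 of 18 bud-localised mRNAs. Over the first 150 nt past every gene the shares were 14.1% and 97.3%, against 12.2% and 14.9% for the other strand, so the excess in the list was on the transcript strand. The motif started a median of 53 nt past the gene (quartiles 33 and 78.2). The members without it were MRP8, which entered the list by the form of its name, and RSM22, with a 3′ UTR of 46 nt (both named after their values were seen). The motif is printed in capitals in 4 members, the best read among those with the motif and a symbol that starts with MRPL, MRPS or MNP (build R64).
MRPS12 (chrXIV:694269-694298, minus): atacaacctttTGTAAATAgcaatgaccat
MNP1 (chrVII:375739-375768, plus): ggaatatatcaTGTAAATAtgtttaactct
MRPL39 (chrXIII:251207-251236, minus): ttcatttatccTGTAAATAagtaatggata
MRPS18 (chrXIV:58860-58889, plus): atatatattcgTGTAAATAattcgattttt
MRPS12 had 3022 reads with a median of 154 nt, and MNP1 had 2633 reads with sites 74 nt apart, the motif lying 79 nt past the gene. MRP2, the other of the 4 best read members, had 2386 reads and a median of 85 nt.

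Genes that face each other commonly shared their terminal sequence. Of 1167 neighbouring convergent coding pairs, the median ends lay past each other in 823 (70.5%, 67.8 to 73.1%). In these the transcripts of the pair were antisense to each other over a median of 86 nt (quartiles 69 and 101). In 326 pairs (27.9%) a median end lay inside the partner gene, so the overlap there is not one of 3′ UTRs alone and includes part of that gene. The share depended on the distance between the genes, from 348 of 351 pairs with a gap of up to 150 nt (99.1%) through 300 of 355 at 151 to 250 nt (84.5%) and 147 of 307 at 251 to 400 nt (47.9%) to 28 of 154 beyond that (18.2%). A pair crosses when its 3′ UTR lengths together exceed the gap, so a lower share at wider gaps is largely built into the measure.

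The 3′ UTR itself was longer where the gap was wider: medians were 94 nt (91 to 97), 124.5 nt (119 to 129), 137.5 nt (130 to 145) and 162 nt (150 to 174) in these classes. Genes with a convergent coding neighbour had a median of 116.5 nt (114 to 119) and genes with a tandem neighbour 110 nt (107 to 113). The counting rule treats these sets differently. Ends inside a gene on the same strand were set aside, and ends past that gene were counted under it. Ends inside a convergent partner were kept. The rule can therefore shorten the 3′ UTR before a tandem neighbour, and its share in the difference was not tested. The largest overlaps came from genes with few reads. IDP3, a peroxisomal isocitrate dehydrogenase gene, ended 840 nt past its end (109 reads) and overlapped the end of ASI3 by 760 nt. BUR2 and ADY4 overlapped by 619 nt, TGS1 (the cap hypermethylase gene) and PRM4 by 366 nt, NUF2 (of the kinetochore) and HST1 (a deacetylase gene) by 296 nt, and RIM2 and MED8 (a Mediator subunit gene) by 243 nt. Reads of direct RNA carry their strand, so these ends are assigned to the strand they came from.

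Coding genes held most of the signal. With each position counted once, 93.9% of reads lay under protein-coding features, 4.30% under rRNA, 1.56% under transposable elements, 0.144% under snoRNA, 0.0963% under tRNA genes, 0.0329% under other ncRNA and 0.0085% under snRNA. Under 3 pseudogenes lay 298 reads. The 276527 downstream reads of YLR154C-G lie inside the 25S rRNA gene and are counted as rRNA in these shares. As sequencing starts at the poly(A) tail, these are shares of tailed or A-ending RNA and not of cellular RNA. Ends inside plus-strand features were not listed under them, so the shares lack such ends.

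How far past the feature the ends lay differed strongly among these types. Of the rRNA reads, 3.72% were downstream of the feature and the rest inside it. Ends inside their own feature were listed on the minus strand alone. Ends within plus-strand features, such as the 5S copies named below, are therefore missing. This limits both the share and the distances of such features. The 8 rRNA features with downstream ends had medians of 10 to 18 nt, and those named by their reads were copies of the 5S gene, RDN5-1 (18 nt), RDN5-6 (10 nt), RDN5-2 and RDN5-3 (both 11 nt), whose reads may be shared. The 96 tRNA features with downstream ends had a median distance of 129.5 nt (109 to 141), within the range of coding genes, and 8 lay within 20 nt. Examples were tK(UUU)D with 2936 reads at a median of 132 nt, tD(GUC)O with 1980 at 147 nt, tK(UUU)P with 1820 at 138 nt, its site lying at the end of a run of 11 A, and tS(AGA)H with 1131 at 102 nt. Mature tRNA ends at the gene, so these reads are no measure of mature tRNA. Ends were counted under the nearest upstream feature end of the strand. Those of a transcript begun further upstream would therefore also fall under a tRNA or snoRNA gene, and how many did so was not tested.

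The 69 snoRNA features had a median of 72 nt (58 to 111), and 18 of them (26.1%) lay within 20 nt. snR4 held 10068 of their reads, with 85.4% at a single position 168 nt past the gene, at the end of a genomic run of 11 A. snR49 (128 nt), snR31 (75 nt, its larger site at the end of a run of 8 A) and snR33 (127 nt) had 1437 to 1780 reads. RPR1, the RNA of RNase P, made by RNA polymerase III, had 5861 reads at a median of 4 nt, and snR6, the U6 RNA made by the same polymerase, had 169 reads at 2 nt. snR19, the U1 RNA, stood at 14 nt with 357 reads. The long and short forms of U5, snR7-L and snR7-S, stood at 58 and 2 nt. The antisense RNA RME2 stood at 33 nt, and RUF5-1 and RUF5-2, which are copies, at 43 nt. Among pseudogenes AAD6 stood at 97 nt, SDC25 at 211 nt and HXT12, with 31 reads, at 130 nt.

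Ty elements stood apart from coding genes. Their 80 features had a median distance of 331.5 nt, with 39 between 300 and 350 nt and 29 between 701 and 800 nt. The best read, YPL257W-B, YLR157C-B, YER138C and YML039W, each had 18570 to 20241 reads with a median of 318 nt. Copies of Ty elements are near-identical, so the reads of any 1 feature are uncertain.

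**Figure D5:**
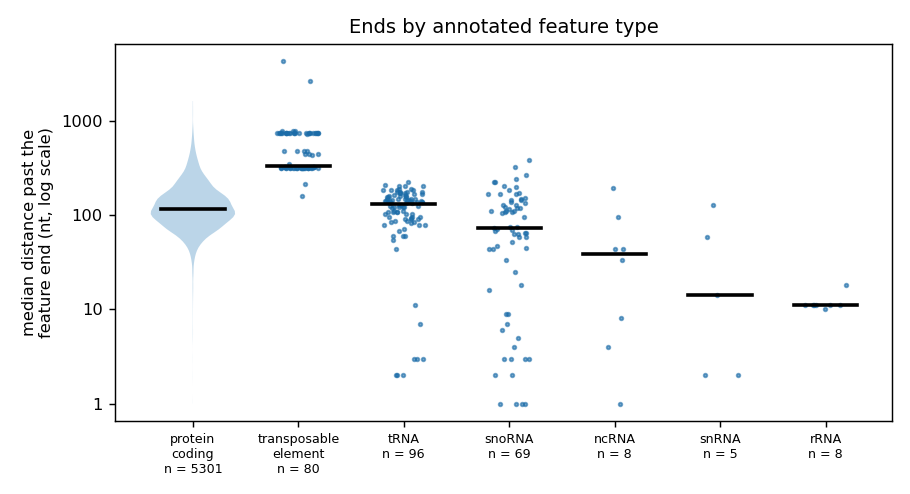
Median distance of the ends past the feature (y axis, nt, log scale) by annotated feature type (x axis, number of features with downstream ends below each name); the coding genes are drawn as a density, other features as points, and the bar is the median. Ty features form bands between 300 and 350 nt and between 701 and 800 nt, and rRNA features lie between 10 and 18 nt.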

How the data were processed

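Direct RNA sequencing of total RNA was used for 9 libraries, of which the 3 WT libraries are described here. The authors deposited 1 table for the group, a signal per 3′ end position and gene, with the libraries pooled. The build was R64, per the submitters' processing notes. For the scale, the aligner and the assignment of reads to genes, nothing is stated by the labels (not given in the sources used here).

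Each value was a whole multiple of 0.04293 (100%, within 0.001 of a read), taken as 1 read, so reads were recovered by division and no count test was run. Positions listed under several features made up 7.15% of 94018, and 4411 of these had unequal reads under their features. Distances past the gene end were recomputed from the coordinates, because on the minus strand the deposited length starts at the far edge of the gene and ends inside genes are listed there alone. Each position was counted once, under the nearest gene end, which left 21457413 reads downstream of 5570 features (21034853 of coding features, with the 276527 of YLR154C-G, which the shares by feature type count as rRNA). Downstream positions inside another gene of the strand (372539 reads) were set aside. Of 5553 features with a locus tag in the R64 annotation from RefSeq, 5544 had identical coordinates. Sequences are from the same RefSeq genome. The 162 coding features without a tag are dubious and were counted, not named.

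Coding genes needed 60 reads for a length and 1000 for sites, where the listing minimum of 11 reads is 1.10% of a gene. Sites were 25 nt windows centred on the highest remaining position with at least 10% of reads. Values have no test, because the libraries share a column, as the plan provided. The members, gene lists and named genes were chosen with earlier results of these data known. Named genes are FPR1 and RPL13A, the 10 coding genes with most reads, the 10 longest and 10 shortest with 200 reads, the 10 with most sites and 10 narrowest, the 10 with the farthest 20% sites, the 4 best read features of each other type, the 5 convergent pairs with the largest overlap, up to 4 members per list and all textbook genes. Whether 25 nt windows cut a broad cluster of ends into several sites was not tested. Python 3.11.15, pandas 2.3.3, numpy 2.4.6, SciPy 1.17.1 and matplotlib 3.10.9 were used.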

Additional observations from a re-analysis of the deposited data

How the results depend on the processing

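Of 38 alternatives, 24 gave a value within the 95% interval of the reported one and 14 outside it. These values have no direction, so none could reverse. The median 3′ UTR moved from 114 to 116 nt (116.1) with the mean distance of each gene. The share of genes with 2 or more sites, 75.9%, became 12.7% with ends joined within 25 nt, 89.4% with 13 nt windows, 42.6% with 51 nt windows, 90.5% with sites from 5% of reads, 45.8% with sites from 20%, and 72.7% with ends after 6 genomic A left out. The width of the central 80%, 31 nt, became 29 nt with 20 reads per position. The coding share of reads, 93.9%, became 88.9% with every listing counted, 93.8% without dubious features and 98.0% for downstream ends alone. The share of crossing convergent pairs, 70.5%, became 82.5% at the 90th percentile of ends, and the TATATA share, 45.0%, became 36.7% within 60 to 21 nt and 57.3% with TACATA allowed. The share of genes with several sites was thus a majority under some definitions and a minority under others. The cause of the changes was not tested. No paired analysis was possible because the 3 libraries share 1 column, and leaving out a library could not be run for the same reason. Depth limits the description to ends with at least 11 reads, and 311 coding features with fewer than 60 reads have no length.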
